A study of Homo sapiens with 3 samples.

Results

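In gene annotation, some non-coding RNA genes are named only by how they lie on a protein-coding gene of the same strand. A sense intronic gene lies within an intron of its host, a sense overlapping gene contains or runs across another gene, and a 3′ overlapping non-coding RNA lies over the end of a gene's transcript. These 3 classes were described in RNA that came down with CTCF, a protein that anchors chromatin loops through its zinc fingers and has been reported to bind RNA as well. Their members were all rows of the deposited count table with one of these 3 biotypes, apart from SNHG3, a small nucleolar RNA host gene with 121 counts. This gave 168 of 17201 listed genes, made up of 93 sense intronic, 58 sense overlapping and 17 genes of the 3′ overlapping class. Only 36 of them carried a gene symbol in the name table, and the other 132 are named here by their Ensembl identifier.

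The RNA came from U2OS, an established human osteosarcoma cell line, in a PAR-CLIP experiment. The nucleoside analogue 4-thiouridine was given at 400 µM for 16 to 24 h, ultraviolet light of 365 nm (400 mJ/cm2) fixed the labelled RNA to the proteins it touched, CTCF was precipitated from nuclear lysate, and the attached RNA was sequenced. The labels give 2 biological replicates, which differ in the antibody lot, and their merge. The merge was the 1 sample analysed here, so no value has a replicate error and no p-value was computed. A control precipitation, an input library and RNA abundance were not analysed here, and the counts are amounts recovered with CTCF, not enrichment. Of 11 markers of osteosarcoma and mesenchymal cells, 7 were listed, FN1 at 1277 counts being the highest, while SP7, SPP1, COL1A2 and S100A4 were not. Of the other markers, 0 of 4 for blood, 0 of 2 for liver and 3 of 4 for epithelium (KRT8, KRT18 and CDH1) were listed.

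RNA of an intron is made with the host's transcript and is normally removed by splicing in the nucleus, where it can be degraded, or persist as an RNA of its own. A short RNA counted inside a long gene can therefore be part of the unspliced host transcript, a product cut from it, or a separate transcript. The table gives 1 interval and 1 count per gene, without strand or exons. No contained gene had more counts than its host, and a read in a shared place is taken here to enter both counts. Counts of this kind cannot tell those 3 sources apart. What they can show is whether a member's interval held more or fewer counts per kb than the rest of the gene around it.

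The members had low counts. They summed to 5050, or 0.382% of the summed count of 1322047, and made up 0.977% of the listed genes. The median count was 17 with quartiles of 8 and 33.25, against 31 with quartiles of 13 and 82 over all listed genes. The table lists no gene under 6 counts, and 18 members stood exactly at 6. In all, 55 members (32.7%) had 10 counts or fewer, against 18.8% of all listed genes. By class, the median was 14 for sense intronic, 20.5 for sense overlapping and 17 for 3′ overlapping genes. These are close to the medians of antisense genes (17) and of lincRNAs (16), the long intergenic non-coding RNAs, and under that of protein-coding genes (43).

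The members were also short, with a median interval of 6.54 kb against 22.8 kb over all listed genes, and a range from 0.078 to 349 kb. Levels are therefore compared per kb. The median was 2.34 counts per kb over the members and 1.78 over all listed genes. This order depends on length. Among genes of 2 to 10 kb, the median was 3.15 counts per kb for 63 members, 2.94 for antisense genes, 2.74 for lincRNAs and 3.87 for protein-coding genes. From 10 to 50 kb it was 0.999 for 45 members, 1.02 for antisense genes, 0.669 for lincRNAs and 1.65 for protein-coding genes. Above 50 kb it was 0.409 for 27 members, 0.255 for antisense genes, 0.175 for lincRNAs and 0.776 for protein-coding genes. Under 2 kb, where a gene needs a high density to be listed at all, it was 7.93 for 33 members, 10.3 for antisense genes, 9.55 for lincRNAs and 11.4 for protein-coding genes. By these medians the members stood below the protein-coding genes in counts per kb in each band, and above the lincRNAs in the 3 longer bands only. The bands are broad, and lengths were not matched within them.

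**Figure D1:**
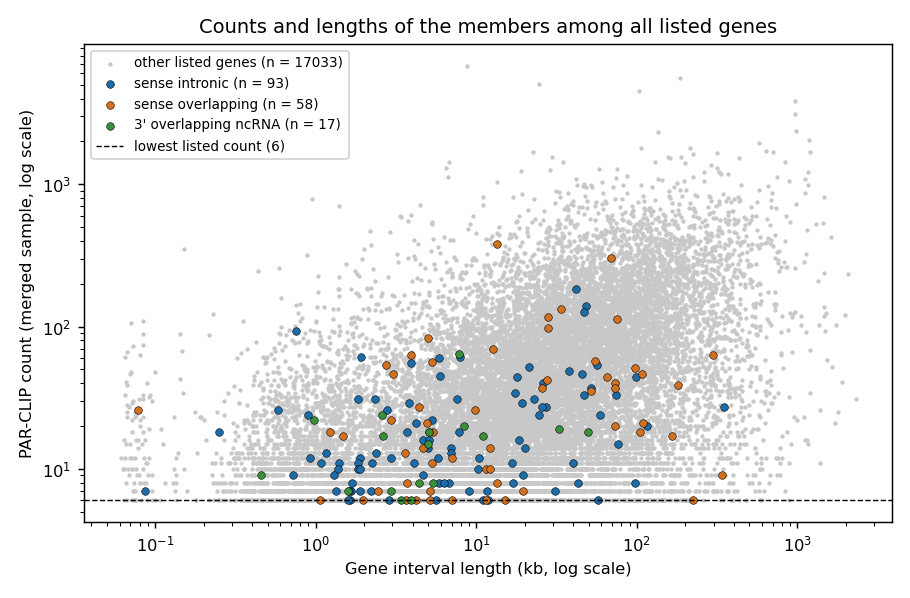
PAR-CLIP count in the merged sample (vertical, log scale) against the length of the gene interval in kb (horizontal, log scale). Each coloured point is 1 of the 168 members by class, grey points are the other 17033 listed genes, and the dashed line marks the lowest listed count of 6. The members fill the lower part of the cloud, from 6 to 377 counts.

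Members were unevenly placed on the genome. Chromosome 16 held 23 of them (13.7%), against 4.24% of all listed genes, and 9 of the 17 genes of the 3′ overlapping class. Chromosome 1 held 12.5% of members and 9.77% of all listed genes, and chromosome 11 held 8.33% and 5.33%. Of the 168 members, 122 (72.6%) shared at least 1 base with another listed gene and 46 overlapped none. Of the 122, 87 lay wholly inside a listed gene and 35 overlapped one without lying wholly inside any. Overlap was seen for 40.8% of all listed genes, but it is not particular to the members. It was 80.3% for antisense genes, 73.5% for processed transcripts and 87.8% for snoRNA genes. For protein-coding genes it was 34.7%, for lincRNAs 38.3% and for pseudogenes 40.2%. The 3 classes are named by how they lie on another gene, so overlap is part of their definition. Lying inside differed between the classes: 75.3% of the sense intronic genes lay wholly inside a listed gene, against 24.1% of the sense overlapping and 17.6% (3 of 17) of the 3′ overlapping genes, and 12.2% of all listed genes. The share was 87.8% for snoRNA genes, 38.8% for antisense genes, 32.0% for pseudogenes, 16.0% for processed transcripts and 11.5% for lincRNAs.

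For 24 members the symbol itself names the gene they belong to, since IT stands for an intronic transcript and OT for an overlapping transcript of the gene before the hyphen. In 17 of them that gene's listed interval contained the member. In the other 7 it lay beside it, although the gene itself was listed. ANKRD44-IT1 had 37 counts and lay 128 kb from the listed ANKRD44 interval. CACNA1C-IT3, named for a calcium channel gene, had 29 counts at a distance of 154 kb. DISC1-IT1 had 9 counts at 202 kb, and the distance was 49.6 kb for BACH1-IT2 (26 counts) and 30.3 kb for BACH1-IT1 (10 counts), both named for a transcription factor gene. ZBTB40-IT1 had 11 counts at 11.2 kb. If the symbols hold, the listed intervals of these genes do not span the whole gene, and a member without a listed overlap need not lie outside every gene. The table has no gene models by which to check this.

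Inside a host, the first question was how the member's counts per kb compared with those of the rest of the host, that is the host's counts outside the member divided by the remaining length. Where several listed genes contained a member, the shortest was taken. Lengths, shares, ratios and places along a host refer to its listed interval, which need not span the whole gene. The 87 contained members lay in 85 hosts, and for 77 of the 87 the host was protein-coding. A median member held 10.9% of its host's counts on 7.70% of its length. The median ratio of the 2 densities was 1.87. At 2-fold or more, 39 of 87 members (44.8%) were denser than the rest of the host, where 64.1% of the 2007 contained genes of other biotypes were. That background is mixed: the share was 91.9% for pseudogenes and 91.1% for snoRNA genes, but 40.2% for antisense genes, 42.9% for processed transcripts and 50% for lincRNAs, and the members lay among these last 3. At 2-fold or more the other way, 15 members (17.2%) were thinner, against a background of 8.52%. That background is mixed as well. The thinner share was 1.67% for pseudogenes and 0% for snoRNA genes. It was 16.1% for processed transcripts, 13.9% for antisense genes, 11.3% for protein-coding genes and 11% for lincRNAs.

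The floor of the table bears on these counts. A short member is listed only if it reached 6 counts, however few its host's density would give it. For 22 of the 87 members, 6 counts already meant a density 2-fold or more above the rest of the host, so these had to be called denser. For 56 members the rest of the host's density would itself have given 6 counts or more. Among these the median ratio was 1.11, with 9 members (16.1%) denser by 2-fold or more, against a background of 26.4%, and 15 (26.8%) thinner, against 19.7%. The denser and thinner shares were 20.3% and 20.9% for antisense genes, 20% and 25.7% for processed transcripts, and 22.8% and 19.3% for lincRNAs. They were 32.1% and 18.5% for protein-coding genes and 35.4% and 16.9% for pseudogenes. In the same range of expected counts the median ratio was 0.987 for 369 antisense genes, 0.992 for 57 lincRNAs and 1.23 for 336 protein-coding genes that lie inside another gene. For 42 members the expected count was 12 or more, so that a 2-fold thinner member could be listed as well. Their median ratio was 0.977, with 4 denser (9.52%, background 20%) and 15 thinner (35.7%, background 28.8%). At this limit the denser and thinner shares were 15.2% and 30.1% for antisense genes and 19.2% and 34.6% for processed transcripts. They were 21.1% and 28.9% for lincRNAs, 25.4% and 25.8% for protein-coding genes, and 18.8% and 34.4% for pseudogenes. Members that could be listed at their host's level thus had about the counts per kb of the sequence around them in the median, with single members far to either side.

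**Figure D2:**
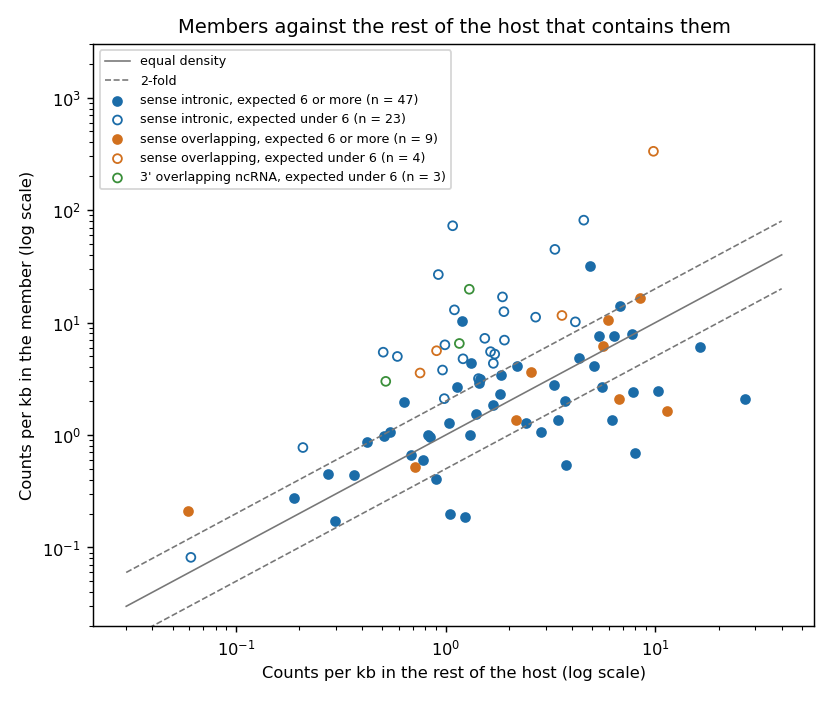
Counts per kb of each member (vertical, log scale) against counts per kb in the rest of the host that contains it (horizontal, log scale), for 86 of the 87 contained members. The member left out, ENSG00000267274, held all 8 counts of its host. Filled points are members whose expected count at the host's density was 6 or more, and they lie on both sides of the solid line of equal density. Open points had an expected count under 6 and all lie above that line, where the floor of the table places them. Dashed lines mark 2-fold.

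**Figure D3:**
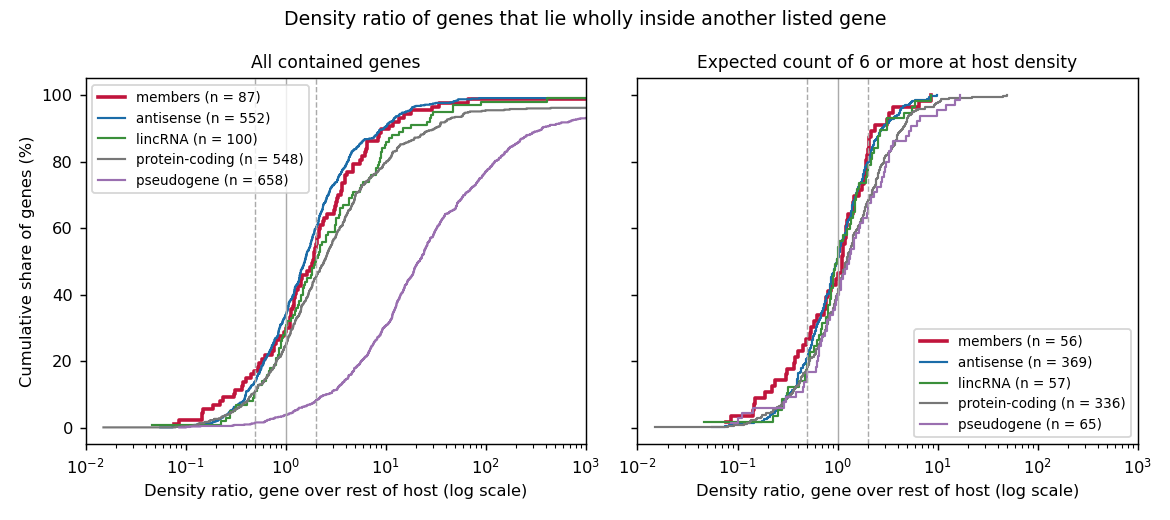
Cumulative share of genes (vertical, %) against the density ratio of a contained gene to the rest of its host (horizontal, log scale), for the members and 4 other biotypes. The left panel holds all contained genes, the right panel those with an expected count of 6 or more. In the left panel pseudogenes, with a median ratio of 21.5, stand far to the right of the members (1.87), and in the right panel the curves come close together, with medians of 1.29 and 1.11.

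Across the 56 members with an expected count of 6 or more, the Spearman rho between the member's counts per kb and those of the rest of the host was 0.65. Over all 87 contained members it was 0.455. The floor of the table and the limit of 6 expected counts set a lower bound on both densities that falls with the member's length. Part of the rho of 0.65 can therefore come from this choice of members, and the rho of other biotypes was not computed. This is a description over genes of 1 library, which share its depth, and not a test. Between the ratio and the member's length, rho was 0.053 in the same members. By place, 64 contained members had a host whose strand could be taken from RefSeq. Of those with an expected count of 6 or more, the median ratio was 1.56 for 18 members in the first of 3 equal parts of the host, counted from its 5′ end, 0.734 for 13 in the middle part and 1.10 for 13 in the last. In the first part 5 were denser and 4 thinner by 2-fold or more, in the middle part 2 and 6, and in the last 1 and 3. Background shares for the parts were not computed, and over all of these members the rho between ratio and place was -0.12.

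The sense intronic gene with the highest count was ENSG00000271430, on the X chromosome (73420064 to 73461983). It had 183 counts (95% Poisson interval 157 to 212) inside FTX, a long non-coding gene of the X-inactivation centre, which had 563. It thus held 32.5% of the counts of FTX on 12.8% of its length. Its density of 4.37 counts per kb was 3.29 times that of the rest of FTX (1.33 per kb), with an exact interval of 2.74 to 3.94. A shorter sense intronic gene nested in it, ENSG00000271533, had 18 counts and 4.88 per kb, and a pseudogene in it, RAB11FIP1P1, had 8. Their removal left 157 of the 183 counts on 36.5 kb, about the same density. At the neighbouring JPX gene, also of the X-inactivation centre, the sense overlapping ENSG00000271199 had 6 counts, at 0.525 per kb, against 0.715 in the rest of JPX (37 counts). Its ratio was 0.734, with an exact interval of 0.251 to 1.79 that holds 1, and 48.4% of its length is shared with FTX.

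The next in count lay near the 5′ end of very long genes. ENSG00000233844 had 139 counts on 48.1 kb of chromosome 6 inside KCNQ5, a potassium channel gene with 905. Its ratio was 2.00 (1.65 to 2.40), just under the 2-fold line, and its midpoint lay 5.67% along the host. NALF1-IT1 had 127 counts on 47.1 kb of chromosome 13 inside NALF1, a gene for an auxiliary factor of the sodium leak channel, with 861. Its ratio was 2.39 (1.97 to 2.89) at 7.85% of the host. In both genes the interval near the 5′ end held more counts per kb than the rest of the gene.

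Among members whose listing did not need a higher density, the highest ratio was that of ENSG00000250135 in KPNA6, a gene for a nuclear import receptor. It had 60 counts on 5.84 kb of chromosome 1 (32636334 to 32642169) out of 135 counts for the whole 68.5 kb host. It held 44.4% of the host's counts on 8.52% of its length, a ratio of 8.59 (6.02 to 12.2), and its midpoint lay 95.7% along KPNA6. Although classed as sense intronic, it ends at the same base as the listed KPNA6 interval, at the 3′ end of the host. Without exons in the table, its counts cannot be split between exon and intron of KPNA6. HAPSTR1, a gene of the cellular stress response on chromosome 16, contained 2 members. ENSG00000262944 had 61 counts on 1.91 kb, a ratio of 6.53 (4.75 to 8.89), and the adjacent ENSG00000263244 had 45 on 5.94 kb, a ratio of 1.19 (0.834 to 1.67). Together they held 53.5% of the 198 counts of HAPSTR1 on 26.2% of its length. The rest of the host holds the other member in each of these ratios. Outside both, HAPSTR1 had 92 counts, or 4.16 per kb, and the longer member stood above this too, at 7.57 per kb (95% Poisson interval 5.52 to 10.1).

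STPG2 on chromosome 4 had 92 counts, and 63 of them (68.5%) fell in the sense overlapping gene ENSG00000254044, which covers 38.0% of its length. The ratio was 3.55 (2.25 to 5.72), at a low level of 0.211 counts per kb against 0.0593. ENSG00000230898 in FAM78B had 34 of 92 counts and a ratio of 3.10 (1.97 to 4.81). ENSG00000259254 lies in KNL1, a kinetochore scaffold gene of dividing cells with 504 counts. It had 55 of them, at a ratio of 2.07 (1.54 to 2.75).

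At the other end, several members had far fewer counts per kb than the rest of their host. ENSG00000257298 lies in LIMA1, which encodes an actin-binding protein and had 529 counts. It spans 23.1% of the listed LIMA1 interval of 25.1 kb but had 12 counts, where the rest of that interval's density would give 155. Its ratio was 0.0774 (0.0397 to 0.136). ENSG00000261574 had 14 counts on 20.2 kb of ANKRD11, a chromatin regulator gene with 1631 counts, where 161 would match the rest. Its ratio was 0.0868 (0.0474 to 0.146). ENSG00000269444 in GTF2F1, a gene for a general transcription factor, had 6 counts (ratio 0.144, 0.052 to 0.324), ENSG00000230696 in SEPTIN10 had 6 (0.146, 0.0529 to 0.322) and NEGR1-IT1 in NEGR1, a neuronal adhesion gene with 1047 counts, had 8 (0.151, 0.0649 to 0.298). RNF216-IT1, looked up after its value was seen, had 44 of the 1521 counts of RNF216, a ubiquitin ligase gene, and a ratio of 0.237 (0.172 to 0.320). The level itself need not be low for the member's length, judged by all listed genes of its length band. RNF216-IT1, at 2.44 counts per kb (Poisson interval 1.77 to 3.28), stood above the median of 1.45 from 10 to 50 kb. ENSG00000257298, at 2.07 (1.07 to 3.62), stood below the median of 3.63 from 2 to 10 kb.

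**Figure D4:**
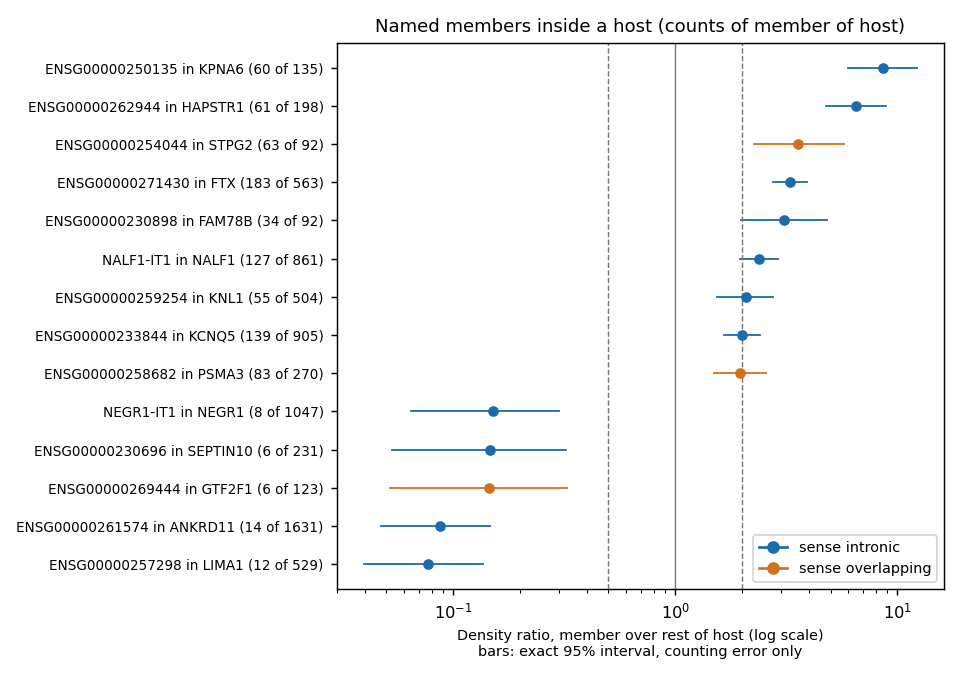
Density ratio of member to rest of host (horizontal, log scale) for the named members with an expected count of 6 or more, with the counts of member and host beside each name. Points are ratios, bars are exact 95% intervals that cover counting error only, the solid line marks equal density and dashed lines 2-fold. The upper 9 members range from 1.96 to 8.59 and the lower 5 from 0.0774 to 0.151.

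Of the 5 members with the most counts per kb, 3 were small RNAs that carry a sense biotype. SNORD87, a small nucleolar RNA (these guide chemical modification of ribosomal RNA), had 26 counts on 0.078 kb, or 333 per kb. It lies inside its host SNHG6, which had 63 counts on 3.86 kb. It held 41.3% of the host's counts on 2.02% of its length, a ratio of 34.1 (19.8 to 57.8). SCARNA10, a Cajal body RNA, had 18 counts at 72.6 per kb inside NCAPD2, a condensin gene with 37, and a ratio of 67.2 (33.3 to 135). SNORD62A had 7 counts at 81.4 per kb. The expected counts of these 3 were 0.763, 0.268 and 0.392, so a higher density was a condition of their listing. ENSG00000267776 had 26 counts at 44.8 per kb on chromosome 19, inside the zinc-finger pseudogene ZNF542P (62 counts), and overlaps a second pseudogene, ENSG00000267459, with 30. It also lies wholly inside the protein-coding gene ZNF582 (53 counts), with its midpoint at 94.6% of that gene from the 5′ end.

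ENSG00000259366, a sense intronic gene of chromosome 8 (28913452 to 28914202), was second in density. It had 93 counts (95% Poisson interval 75.1 to 114) on 0.751 kb, or 124 per kb. No listed gene overlaps it, and the nearest, HMBOX1, a homeobox gene with 386 counts on 162 kb, ends 3.20 kb away. Among the other members without an overlap, ENSG00000244332 had 132 counts on 33.8 kb of chromosome 10 (96337196 to 96370995), 3.33 kb from HELLS, a chromatin remodeller gene. ENSG00000260336 on chromosome 7 had 63 counts on 3.92 kb, 3.42 kb from TRIM56. ENSG00000260671 on chromosome 16 had 61 on 7.94 kb and ENSG00000259176 on chromosome 15 had 57 on 54.7 kb. Over all 46 the median was 12 counts and 1.52 per kb. These counts are free of reads counted for another listed gene, but not of reads from parts of a gene that its listed interval leaves out.

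The highest count of all members belonged to the sense overlapping gene ENSG00000228470 on chromosome 1 (214517515 to 214530958). It had 377 counts (95% Poisson interval 340 to 417) on 13.4 kb, or 28.0 per kb. It shares 8.92 kb, 66.3% of its length, with the 3′ end of PTPN14, a tyrosine phosphatase gene with 911 counts on 203 kb, or 4.50 per kb. Per kb the member was thus 6.23 times as high as PTPN14 as a whole. How many of the 377 lie in the shared stretch is not given.

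Some members span another gene, whose counts are then part of their own. Of the 168 members 8 contained another listed gene, 6 of them sense overlapping and 2 sense intronic. In 4 of these 8 the inner genes had over 50% of the member's counts. The same shares over all listed genes were not computed, so these numbers describe single members only. Containing a gene is also part of how the sense overlapping class is defined. ENSG00000258344 had 301 counts on 68.5 kb of chromosome 12. The HNRNPA1 interval inside it, for an abundant splicing regulator, had 252 of them on 6.90 kb, which leaves 49 counts, or 0.796 per kb, elsewhere. It also overlaps CBX5, for the heterochromatin protein HP1 alpha, with 219 counts, and COPZ1 with 29. ENSG00000258199 had 98 counts, and SMARCC2, a gene of the SWI/SNF chromatin remodeller, takes up 95.2% of its length and 95 of its counts. HCP5, a non-coding gene of the major histocompatibility region, had 44 counts on 65.1 kb, 28 of them in MICA, which leaves 0.300 per kb. ENSG00000269707 had 37 counts, 19 of them in POU3F3 and LINC01159, which leaves 18. Outside its inner gene ENSG00000258199 had 3 counts left.

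Other sense overlapping genes run across a gene end. ENSG00000227161 had 117 counts at 4.18 per kb between GTF2A2 (71 counts, 3.65 per kb) and BNIP2 (102 counts, 3.36 per kb), both of which it overlaps. ENSG00000254698 had 113 counts at 1.498 per kb and shares 87.5% of its length with RAB30, which had 162 at 1.64 per kb. Per kb both stood near the level of the genes they overlap, at 0.913 to 1.24 times it. ENSG00000258682 lies wholly in PSMA3, a proteasome subunit gene, with 83 counts and a ratio to the rest of it of 1.96 (1.49 to 2.55), and 86.0% of it is also covered by the antisense gene PSMA3-AS1 (216 counts).

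Of the 17 genes of the 3′ overlapping class, 12 could be placed along a protein-coding gene, and these lay mostly at its 3′ end. The class is defined by lying there, so this place comes from the annotation and is not a result of the counts. The strand of the overlapped protein-coding gene was known for 13 pairs of 12 members, and in 12 of these pairs the member's midpoint lay in the last of 3 equal parts of the gene or beyond its 3′ end. The 13 midpoints ranged from 64.9% to 124% of the gene's length from its 5′ end, with a median of 99.96%. For sense intronic genes the median was 40.2% over 53 pairs, with 23 pairs in the first part, 12 in the middle and 18 in the last.

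**Figure D5:**
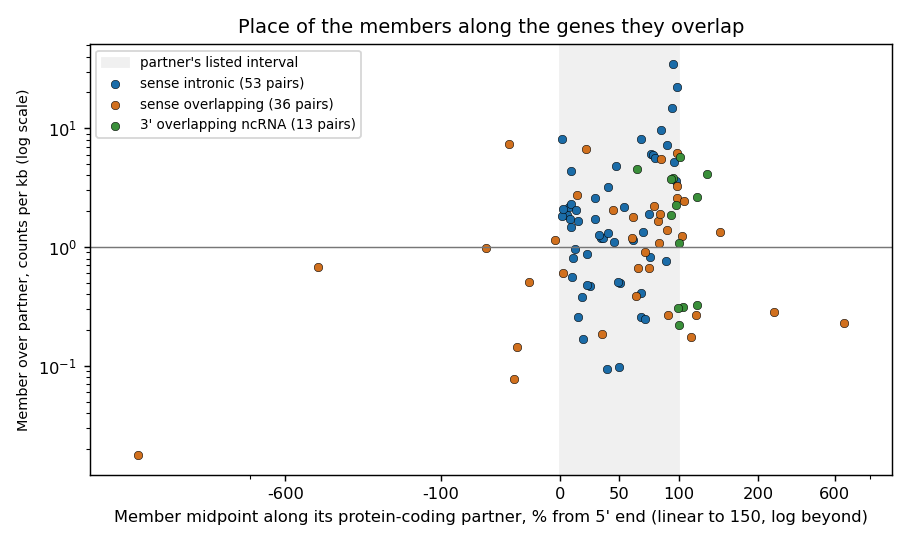
Ratio of counts per kb of a member to those of a protein-coding gene it overlaps (vertical, log scale) against the place of the member's midpoint along that gene in % from the 5′ end (horizontal, linear near the gene and log further out on each side). Each point is 1 pair, coloured by class, and the grey band is the partner's listed interval. The 13 pairs of the 3′ overlapping class gather around 100%, with ratios on both sides of 1.

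In this class the highest count was that of ENSG00000241409 on chromosome 2 (233624856 to 233632659), with 64 counts (95% Poisson interval 49.3 to 81.7) or 8.20 per kb. It overlaps the last 1.49 kb of KCNJ13, a potassium channel gene that had 20 counts, or 1.98 per kb, so that at most 20 of the 64 can lie in the listed KCNJ13 interval. ENSG00000267548 on chromosome 17 had 24 counts at 9.35 per kb between the ends of 2 genes on opposite strands. It touches CNP, a myelin enzyme gene with 3.56 per kb, by 0.011 kb and shares 1.299 kb with DNAJC7, a chaperone gene with 8.56 per kb. ENSG00000267660 on chromosome 16 had 22 counts on 0.974 kb, or 22.6 per kb. It overlaps LCAT, for a cholesterol-esterifying enzyme (13 counts, 2.97 per kb), and SLC12A4, a potassium-chloride cotransporter gene (96 counts, 3.94 per kb). Per kb these 3 stood at 2.63 to 7.61 times the genes they overlap, except that ENSG00000267548 stood at 1.09 times DNAJC7, whose level lies within the member's 95% Poisson interval of 5.99 to 13.9 per kb.

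Both directions were seen in the other named genes of the class. ENSG00000258302 had 19 counts at 0.578 per kb beyond ATP2B1, a calcium pump gene with 1.78 per kb. ENSG00000235423 had 20 counts at 2.38 per kb over MTRFR, a mitochondrial translation gene with 1.28 per kb, a difference of 1.86 times. Wholly inside a listed gene were ENSG00000266937, with 17 of the 44 counts of NUTF2, a nuclear transport factor gene (ratio 5.61, 2.87 to 10.7), and ENSG00000262657, with 15 of the 35 of ZNF267, a zinc-finger gene (ratio 5.79, 2.76 to 11.9). Both lie near the 3′ end of the host, at 94.95% and 93.1%, and both had an expected count under 6. Without a listed overlap were ENSG00000262820 with 18 counts on 5.07 kb, 3.96 kb from ZFP90, ENSG00000261483 with 18 on 49.3 kb, 99.5 kb from the nearest listed gene, and WDR7-OT1 with 17 on 11.0 kb. WDR7-OT1 begins 0.519 kb past the end of the listed WDR7 interval on chromosome 18. It had 1.54 counts per kb against 0.415 in WDR7.

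Members that overlap a protein-coding gene but lie wholly inside no listed gene gave 40 pairs, 25 of sense overlapping and 13 of 3′ overlapping genes. The sense overlapping pairs include HNRNPA1, SMARCC2, MICA and POU3F3, which lie wholly inside the member. The member's counts per kb were there 0.120, 0.982, 0.283 and 0.229 times those of the gene. The median ratio of the member's counts per kb to those of the whole partner was 0.985. The member was 2-fold or more denser in 11 pairs (27.5%), where 19.4% of 1001 pairs of other non-coding genes were. It was 2-fold or more thinner in 14 pairs (35%), against 32.5%. By class the median was 0.685 for sense overlapping and 1.77 for 3′ overlapping genes, over ranges of 0.0177 to 7.32 and 0.219 to 7.61 that overlap almost entirely. Several pairs share a member, so they are not separate observations.

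MIR130AHG, MIR100HG and MIR31HG are host genes of microRNAs, short RNAs that silence messenger RNAs through their seed, bases 2 to 8. MIR130AHG had 69 counts (95% Poisson interval 53.7 to 87.3) on 12.7 kb of chromosome 11, at 5.44 per kb, and overlaps CLP1, an RNA kinase gene with 8 counts at 0.744 per kb. MIR100HG had 40 counts on 73.3 kb and MIR31HG 18 on 104 kb, or 0.545 and 0.173 per kb, with no listed overlap. The last 2 genes were picked after their values were seen, to complete the group. The mature 5′ arms of the microRNAs these genes are named or known for are shown only to identify them, taken from RefSeq (GRCh38.p14). Bases 2 to 8 of each arm are in capitals. The 5′ arm need not be the arm through which a microRNA silences messenger RNAs, and the 3′ arms are not shown. MIR31HG is the host of miR-31, MIR100HG of miR-100, let-7a-2 and miR-125b-1, and MIR130AHG of miR-130a.
hsa-miR-31-5p: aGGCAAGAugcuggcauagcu
hsa-miR-100-5p: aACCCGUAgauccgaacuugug
hsa-let-7a-5p: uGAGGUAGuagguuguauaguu
hsa-miR-125b-5p: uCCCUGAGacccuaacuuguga
hsa-miR-130a-5p: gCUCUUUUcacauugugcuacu
The 5 seeds all differ. None (0) of the 5 microRNA genes was listed, among 18 listed genes of the miRNA class, so no count of the microRNAs themselves is given here. Whether the microRNAs lie inside the counted intervals of the 3 hosts was not computed, since the sequences and the counts are of different builds.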

How the data were processed

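The merged sample's deposited table holds whole-number counts, 1 per Ensembl gene with position and biotype. The authors merged the sequencing data of both replicates, per the labels. Build hg19 and the tools Bowtie and bedtools are named, per the submitters' processing notes; versions, roles, strand use, deduplication and the treatment of reads that map to several places are not stated in the sources used here. All 17201 rows were kept. Symbols came from a table of Ensembl identifiers (133 of 168 members matched, 36 with a symbol) and strands of hosts from RefSeq (GRCh38.p14), used for names and direction only. Coordinates are hg19, read as 1-based.

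Overlap means 1 shared base or more. A contained member's density ratio is its counts per kb over those of the rest of its shortest containing gene, called at 2-fold, with an exact 95% interval from the Clopper-Pearson interval of its share of the host's counts. Single counts carry exact 95% Poisson intervals. These intervals cover counting error only, since PCR copies are not independent molecules and replicate variation is not included. The expected count is the member's length times the density of the rest of the host.

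Named genes were the 10 highest counts of the 3′ overlapping class, the 8 highest of each other class, the 5 highest per kb, the 5 highest and 5 lowest ratios among members with an expected count of 6 or more, the 5 highest without an overlap, and HCP5 from a list of well-known RNAs. Members and lists were chosen with earlier results of these data known. The calculation was tested on simulated data. Work was done in Python 3.11.15 with pandas 2.3.3 and scipy 1.17.1.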

Additional observations from a re-analysis of the deposited data

How the results depend on the processing

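Over 37 alternatives, 27 left a value within 1.5 times the count or within the binomial interval of the median. Part of this was fixed in advance. A listed member that is 2-fold or more thinner always has an expected count of 12 or more. The number of thinner members therefore had to stay at 15 with an expected count of 6 or more and of 12 or more. Their share rose from 17.2% to 26.8% and 35.7%. The median count moved from 17 to 24 at a minimum of 10 counts and to 12 without overlapping genes, and the median per kb from 2.34 to 1.52 without overlapping genes. The number of members denser than the rest of the host moved from 39 to 9 with an expected count of 6 or more and to 4 with 12 or more, and was 5 of 17 where the symbol names the host. The number of thinner members moved from 15 to 9, of 62, in hosts with no other listed gene. The median density ratio moved from 1.87 to 1.11 with an expected count of 6 or more, to 1.11 where the symbol names the host, and below 1, to 0.977, with 12 or more. Fewer members enter each of these alternatives. The alternatives with 12 or more, with the host in the symbol and without small nucleolar and Cajal body RNAs were chosen after seeing the data. No paired analysis was possible because the table used here merges the replicates, and leaving out a replicate was not run for the same reason. Depth limits every member near 6 counts, whose 95% Poisson interval reaches up to 13.1.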
